A study of Mus musculus with 6 samples.

Results

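The ISG15 conjugation pathway was followed in HT22 cells exposed to interleukin 17 (IL-17). Its 5 genes, Isg15, Uba7, Ube2l6, Herc6 and Usp18, were picked by symbol from the 26595 genes of the deposited table, and all 5 were present once. HT22, a mouse hippocampal neuronal cell line that grows without limit in culture, is labelled wild type. The groups are 3 libraries from cells given IL-17 and 3 from cells with no special treatment, called controls below. The treatment label of each sample sets its group, although a general protocol field speaks of IL-17 for every sample. How much IL-17 was given, and for how long, is not stated in the labels. Whether libraries of a group are separate cultures is not stated. The p-values therefore measure only how these libraries vary, and that variation may be technical.

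ISG15 is a small ubiquitin-like protein that interferon-treated cells attach to other proteins, a modification called ISGylation. As with ubiquitin, an activating enzyme (E1), a conjugating enzyme (E2) and a ligase (E3) act in turn, and a protease removes the tag. In mouse these are Uba7 (E1), Ube2l6 (E2), Herc6 (the main E3) and Usp18 (the protease). All are classed as interferon-stimulated genes, switched on by the transcription factor complex ISGF3. Usp18 also acts apart from its protease activity, binding the interferon receptor chain Ifnar2 and damping its signal. Free ISG15 can also be secreted and act on immune cells.

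The promoter windows of the genes are shown because all members are textbook interferon targets and moved together here. Each window runs from 250 bases before to 50 bases after the RefSeq start, on build GRCm38.p6, and windows were found for Isg15, Uba7, Ube2l6 and Herc6. The core of the interferon-stimulated response element, GAAA, any 2 bases and GAAA again on either strand, was present in 3.44% of all 32851 windows. The Isg15 window, chr4:156200769-156201068 on the minus strand, held 3 overlapping matches between 78 and 57 bases before the start, given in capitals:
Isg15: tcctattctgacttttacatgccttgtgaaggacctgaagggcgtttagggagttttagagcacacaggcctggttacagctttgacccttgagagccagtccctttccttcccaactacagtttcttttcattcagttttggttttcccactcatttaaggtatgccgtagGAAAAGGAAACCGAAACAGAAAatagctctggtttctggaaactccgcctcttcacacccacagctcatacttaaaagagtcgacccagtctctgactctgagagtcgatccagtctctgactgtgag
No exact match to this core was found in the Uba7, Ube2l6 or Herc6 windows. A shorter core, AANNGAAA, was searched after the windows had been read, and was present in 23.9% of all windows. The Uba7 window, chr9:107975317-107975616 on the plus strand, held 1 match to it, on the opposite strand from 27 to 20 bases before the start, given in capitals:
Uba7: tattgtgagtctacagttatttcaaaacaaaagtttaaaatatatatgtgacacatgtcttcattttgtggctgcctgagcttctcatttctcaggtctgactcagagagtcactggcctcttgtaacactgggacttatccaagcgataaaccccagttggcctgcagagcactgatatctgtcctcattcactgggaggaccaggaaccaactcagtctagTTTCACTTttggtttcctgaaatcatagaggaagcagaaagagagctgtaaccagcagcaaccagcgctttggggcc
The Ube2l6 window (chr2:84798578-84798877, plus strand) and the Herc6 window (chr6:57580742-57581041, plus strand) held no match to the shorter core. Of the 25 other interferon-stimulated genes with a window, 11 held the longer core and 18 the shorter one in any of their windows. These are counts of genes, while the shares above are of windows. The gamma-activated site TTCNNNGAA, in 8.3% of windows, was found in none of these 4. The kappa B core, GGG, any 5 bases and CC, in 50.8% of windows, was found, among the 4, only in the Herc6 window, at a near-palindromic stretch read on both strands. A match is a run of letters, not a measured binding site.

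Values are FPKM, fragments scaled by transcript length and by the number of mapped fragments, so levels of different genes can be set side by side. The table holds no counts. Among 10445 genes with 1 annotated transcript, FPKM times length in kilobases piled up at a step of 0.0572 to 0.0638, where the fullest bin held 132 to 168 genes and the median bin 2. If that step is 1 fragment, the libraries held about 15700000 to 17500000 fragments. Isg15 would then rest on about 8800 to 9000 fragments in IL-17 libraries and 14300 to 17900 in controls. The other members have several transcripts, for which no such figure was made. Levels of lung and liver transcripts varied among the libraries and are given with the members' values below.

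All 5 genes of the pathway were lower with IL-17, by 31.5% to 41.6% of their control mean. Each was tested by limma on log2(FPKM + 1) over the 12953 genes with a mean of at least 0.5 FPKM, with Benjamini-Hochberg adjustment and a threshold of 0.05. All 5 passed, where 0.996% of tested genes were called lower and 1.95% were called in either direction. No IL-17 library reached any control library in any of the 5, where 10.9% of tested genes had non-overlapping groups in that direction. The 5 genes and the lists below were chosen with earlier results of these data known, so these shares describe them and test nothing. The median log2 fold change of the 5 was -0.55, against 0.02 over all tested genes. In bulk RNA, fewer cells expressing a gene and less RNA per cell cannot be told apart.

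**Figure D1:**
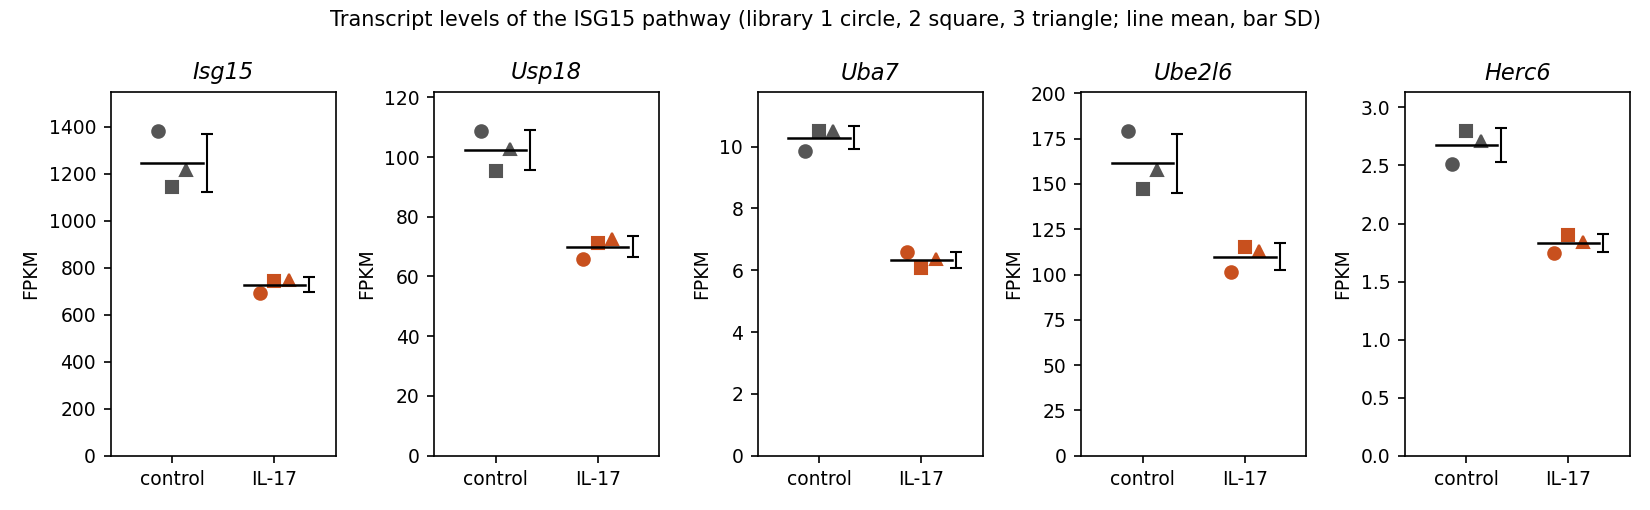
FPKM of the 5 genes in each library, with a separate axis from 0 for each gene; points are libraries, lines are means and bars are SD (n = 3 per group). In every panel the 3 IL-17 points lie below the 3 control points, from 692 to 748 against 1142 to 1381 FPKM for Isg15.

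Isg15 encodes the modifier itself, and its 756 exonic bases span 156199424 to 156200818 of chromosome 4 (GRCm38, minus strand). It stood at 692, 743 and 748 FPKM in IL-17 libraries 1, 2 and 3 and at 1381, 1142 and 1215 FPKM in control libraries 1, 2 and 3. The lowest control library was 394 FPKM above the highest IL-17 library. The log2 fold change was -0.77 (SE 0.08, 95% interval -0.96 to -0.59, limma adjusted p = 0.00358). Isg15 remained an abundant transcript: its mean level ranked 32 in controls and 64 with IL-17 among all 26595 genes. It made up 0.312% to 0.361% of all FPKM in controls and 0.189% to 0.201% with IL-17. A transcript with a 482-base stretch of 95.2% identity, AC151275.1, averaged 0.105 FPKM.

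Uba7 encodes the E1 that activates ISG15 and hands it to the E2. Its gene spans 107975505 to 107984060 of chromosome 9 (plus strand). Its levels were 6.59, 6.07 and 6.36 FPKM in IL-17 libraries 1 to 3 and 9.87, 10.5 and 10.5 FPKM in control libraries 1 to 3. The groups were narrow and far apart, with means of 6.34 ± 0.262 and 10.3 ± 0.363 FPKM (SD, n = 3 each). Uba7 had the smallest adjusted p of the 5 by limma, 0.00239, and fell by 0.62 on the log2 scale (95% interval -0.75 to -0.49, SE 0.06).

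Ube2l6 encodes the E2 that carries ISG15 to the ligase, and spans 84798828 to 84810335 of chromosome 2 (plus strand). Its levels were 101, 115 and 113 FPKM in IL-17 libraries 1 to 3, and 179, 147 and 157 FPKM in control libraries 1 to 3. Control library 1 was high in Ube2l6 as it was in Isg15. The log2 fold change was -0.55 (SE 0.08, 95% interval -0.75 to -0.35, limma adjusted p = 0.0217). Leaving out IL-17 library 2, IL-17 library 3 or control library 3 each ended the call, with adjusted p of 0.0664, 0.0638 and 0.0827 by limma, within a range of 0.00684 to 0.129 across all alternatives. Genes or pseudogenes with over 300 aligned bases of at least 90% identity to Ube2l6 averaged at most 0.327 FPKM where listed.

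Herc6 encodes the HECT-type ligase that attaches most ISG15 in mouse cells, and spans 57581000 to 57664632 of chromosome 6 (plus strand). It was the least abundant member, at 1.75, 1.90 and 1.84 FPKM in IL-17 libraries 1 to 3, against 2.51, 2.80 and 2.71 in control libraries 1 to 3. Every library was above the filter of 0.5 FPKM. The log2 fold change was -0.38 (SE 0.06, 95% interval -0.52 to -0.23, limma adjusted p = 0.032) on the log2(FPKM + 1) scale. That scale shrinks changes at low levels: with a pseudocount of 0.1 the value was -0.52. The call was lost when any library was left out. Without IL-17 libraries 1, 2 and 3 the limma adjusted p was 0.079, 0.121 and 0.106, and without control libraries 1, 2 and 3 it was 0.0526, 0.138 and 0.129, within a range of 0.00853 to 0.223 over all alternatives. The log2 fold change stayed negative in each.

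Usp18 encodes the protease that cuts ISG15 from its targets. It spans 121245906 to 121270917 of chromosome 6 (plus strand). Its levels were 66.0, 71.3 and 72.6 FPKM in IL-17 libraries 1 to 3, and 109, 95.3 and 103 FPKM in control libraries 1 to 3. The lowest control was 22.7 FPKM above the highest IL-17 library. The log2 fold change was -0.54 (SE 0.07, 95% interval -0.69 to -0.39, limma adjusted p = 0.00758), and the call was kept with each library left out in turn. It was lost with IL-17 library 1 and control library 3 both left out (limma adjusted p = 0.0661) and with the replicate number as a block (0.0703), within a range of 0.00166 to 0.0703 over all alternatives.

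Set in order of level, the control means ran from Isg15 (1246 ± 123 FPKM) through Ube2l6 (161 ± 16.3), Usp18 (102 ± 6.74) and Uba7 (10.3 ± 0.363) to Herc6 (2.67 ± 0.147; SD, n = 3). The IL-17 means kept that order, at 728 ± 30.8, 110 ± 7.37, 69.9 ± 3.51, 6.34 ± 0.262 and 1.83 ± 0.0776 FPKM. In no library did neighbours in this order overlap. Isg15 transcripts were 115 ± 8.94 times as abundant as those of its E1 with IL-17 and 121 ± 16.3 times in controls.

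Whether the members fell by the same factor was asked from the ratio of FPKM within each library, over all 10 pairs. Isg15 was 10.5, 10.4 and 10.3 times Usp18 with IL-17 and between 11.8 and 12.7 times in controls. It was 6.83, 6.45 and 6.62 times Ube2l6 with IL-17 and 7.70, 7.74 and 7.72 times in controls, and that ratio hardly varied among controls. Isg15 to Herc6 likewise had lower ratios with IL-17 (391 to 406) than in controls (408 to 550). In these 3 pairs the groups did not overlap, and the log2 ratio was lower by 0.23, 0.22 and 0.23 with IL-17. For each, p = 0.1 by an exact permutation test, two-sided, which is the lowest value 3 libraries a group allow, and 0.333 after adjustment over 10 pairs. The test could not have passed at this size, so whether Isg15 fell by another factor is not decided by it. For Isg15 to Uba7 the ratios overlapped, 105 to 122 with IL-17 and 109 to 140 in controls (exact permutation p = 0.7). The 6 pairs without Isg15 also overlapped, with exact permutation p between 0.2 and 1.

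**Figure D2:**
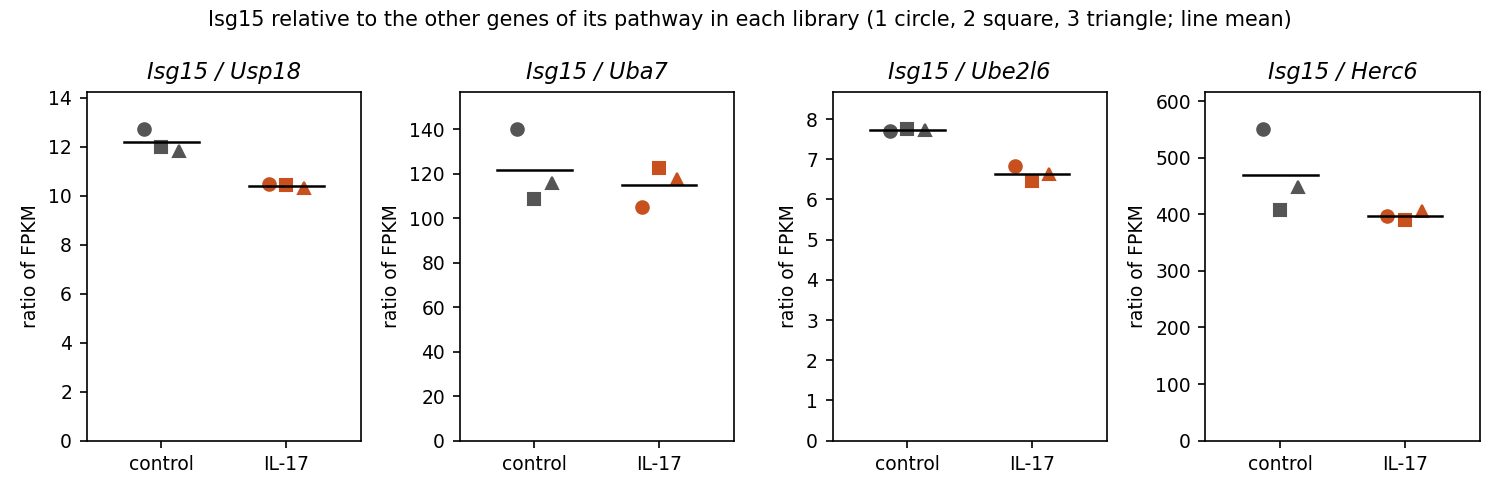
Ratio of Isg15 FPKM to the FPKM of each other member in every library, each axis from 0; points are libraries and lines are group means. The IL-17 points lie below the control points for Usp18, Ube2l6 and Herc6, narrowly for Herc6 (highest 406 against lowest 408), and overlap them for Uba7.

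Within a group, the libraries fell into different orders for different members. Isg15, Ube2l6 and Usp18 were highest in control library 1, at 111%, 111% and 106% of their control mean, and lowest in control library 2, at 91.7%, 91.4% and 93.2%. Uba7 and Herc6 were instead lowest in control library 1, at 95.9% and 94.0%. The first 3 have 756, 1996 and 2790 exonic bases and the other pair 6692 and 9292. The part of transcript length in these orders was not tested. With a correction for exonic length, chosen after these orders were seen, all 5 stayed called and their log2 fold changes ran from -0.81 for Isg15 to -0.41 for Herc6.

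**Figure D3:**
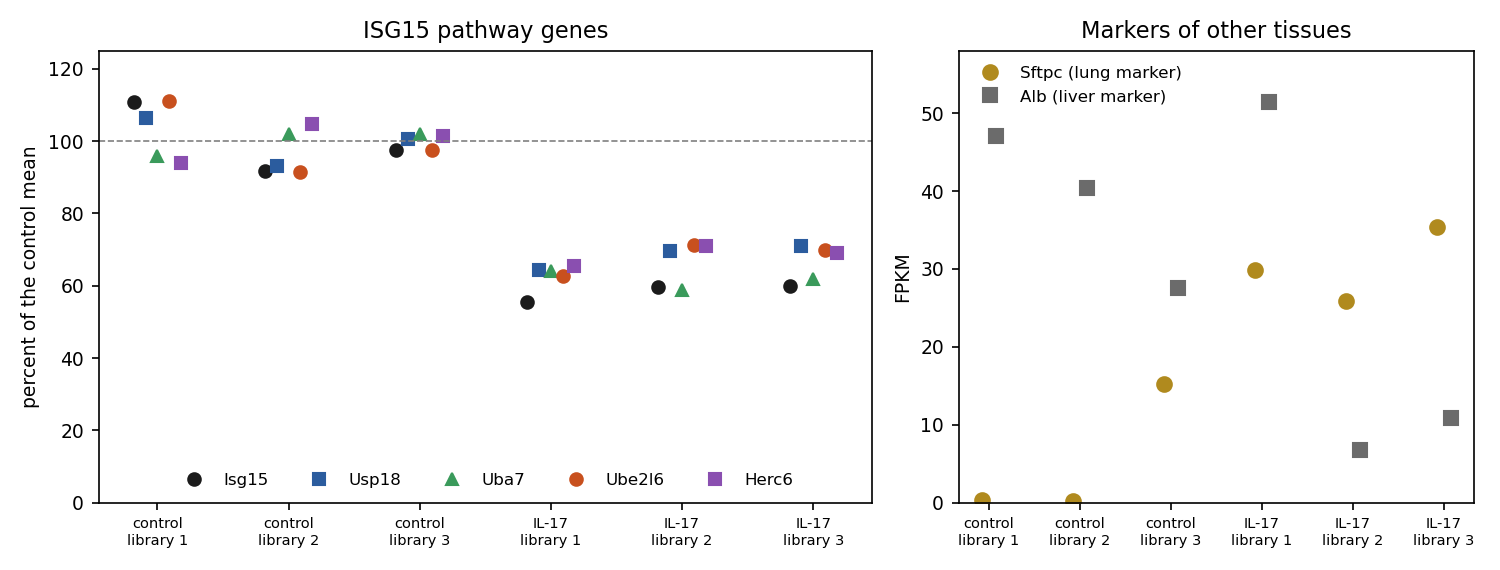
Left, each member in each library as a percent of its own control mean (dashed line at 100); right, FPKM of Sftpc, a lung surfactant gene, and Alb, the albumin gene of liver. The members stay between 55.6% and 71.3% in all IL-17 libraries, while Alb is high in IL-17 library 1 and the controls, and Sftpc in the IL-17 libraries and, at 15.2 FPKM, control library 3.

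Lung and liver transcripts were uneven between the libraries. The summed level of 10 lung markers ran from 151 to 267 FPKM with IL-17 and from 69.9 to 130 in controls. Without Lyz2, a lysozyme gene that macrophages also express, it ran from 66.0 to 171 FPKM in IL-17 libraries against 5.07 to 58.2 in controls. Of 8 tested lung markers 1, Lyz1, was called higher (limma adjusted p = 0.0412, kept only without control library 3 among the fits with 1 library left out, up to 0.142). Sftpc was not called (limma adjusted p = 0.126). The lung sums did not overlap between the groups, and 7 of the 8 tested lung markers had a positive log2 fold change (median 1.38). The summed level of 10 liver markers ran from 16.2 to 115 FPKM with IL-17 and from 60.5 to 106 in controls. Of 9 tested liver markers 0 were called by limma, but all 9 had a negative log2 fold change (median -0.90). The median over all tested genes was 0.02. Alb was at 51.4, 6.75 and 10.8 FPKM in IL-17 libraries 1 to 3 and 47.1, 40.4 and 27.5 FPKM in control libraries 1 to 3. All members in IL-17 library 1 stood between 55.6% and 65.4% of their control means. Sftpc was at 29.8, 25.8 and 35.3 FPKM in IL-17 libraries 1 to 3 and 0.331, 0.170 and 15.2 FPKM in control libraries 1 to 3. All members in control library 3 stood between 97.5% and 102% of their control means. With IL-17 library 1 and control library 3 both left out, the log2 fold changes were -0.75 for Isg15, -0.63 for Uba7, -0.51 for Ube2l6, -0.35 for Herc6 and -0.50 for Usp18. Isg15 and Uba7 stayed called (limma adjusted p = 0.0365 and 0.0271) and Ube2l6, Herc6 and Usp18 did not (0.111, 0.223 and 0.0661), with 2 libraries per group. That fit did not even out the lung and liver transcripts. In it Sftpc was called higher with IL-17 (log2 fold change 4.65, limma adjusted p = 0.000502) and Alb lower (-2.22, 0.00869). Of 8 neuronal markers 2 had a mean of at least 1 FPKM, as had 3 of 9 macrophage and microglia markers and 8 of 8 mesenchymal markers. The summed macrophage markers ran from 289 to 327 FPKM with IL-17 and from 283 to 302 in controls, and were mostly Cd68. Without Cd68, a lysosomal gene, they ran from 41.4 to 42.8 FPKM in IL-17 libraries against 46.5 to 49.9 in controls. That remainder was mostly Tmem119 and Csf1r, the latter at 19.4 ± 0.443 FPKM in IL-17 libraries against 21.5 ± 1.06 in controls and not called. Ptprc and Adgre1 had higher means with IL-17, at 1.04 against 0.754 and 0.823 against 0.723 FPKM, and were not called. Of 5 tested macrophage and microglia markers, 3 had a positive log2 fold change and 2 a negative one, with a median of 0.08. Only 1 was called: Tmem119, listed here as a microglial marker, was lower, from 24.9 ± 1.36 to 20.0 ± 0.437 FPKM (limma adjusted p = 0.0416). The listed markers Itgam, Aif1, Cx3cr1 and P2ry12 averaged 0.160, 0.264, 0.0775 and 0.0496 FPKM over all libraries and were not tested. Which cells the Tmem119 transcripts came from was not tested either. The mesenchymal markers summed to 2803 to 3011 FPKM in IL-17 libraries against 2875 to 3179 in controls. Vim, the vimentin gene, was called lower among them, from 274 ± 9.14 to 223 ± 7.72 FPKM (limma adjusted p = 0.0334). These macrophage and microglia genes and Vim were named after their values were seen. The Tmem119 and Vim calls were both lost with any library left out, at limma adjusted p of 0.0621 to 0.188 for Tmem119 and 0.0591 to 0.145 for Vim.

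Of 5 plasmacytoid dendritic cell and lymphocyte markers 3 reached 1 FPKM. Their sum, 494 to 542 FPKM in IL-17 libraries against 692 to 792 in controls, was mostly Bst2, itself an interferon-stimulated gene. Without Bst2 the sum was 7.50 to 8.37 FPKM in IL-17 libraries against 5.04 to 7.44 in controls. Cd3e, a T cell receptor component, averaged 1.65 ± 0.225 against 1.17 ± 0.252 FPKM, and Nkg7, a cytotoxic granule gene, 6.36 ± 0.305 against 4.88 ± 0.997 FPKM, neither called. Siglech, a defining marker of plasmacytoid dendritic cells, was at 0.013 FPKM in control library 1 and listed at 0 in the other libraries. The neuronal markers summed to 14.6 to 16.0 FPKM in IL-17 libraries against 18.0 to 19.3 in controls. The part of these sums in the members' values was not tested.

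The parallel enzymes of ubiquitin and of other ubiquitin-like tags gave 0 calls by limma in 3 lists. Of their 3, 24 and 16 tested genes, 0, 7 and 4 had an unadjusted p under 0.05. Over all tested genes 16.7% had such a p. Uba1, the E1 of ubiquitin, averaged 160 ± 10.3 FPKM in IL-17 libraries against 169 ± 10.5 in controls (SD, n = 3 each; limma adjusted p = 0.598). Ube2l3, the ubiquitin E2 closest to Ube2l6, stood at 36.2 ± 1.66 and 36.3 ± 0.351 FPKM (limma adjusted p = 0.981). Of 24 tested genes for conjugation of SUMO, NEDD8, UFM1, URM1, FAT10 and the autophagy tags, 0 were called in either direction, with a median log2 fold change of -0.02. Under 1 alternative setting the count called lower was not 0. Ubd, the gene of FAT10 itself, averaged 0.0769 FPKM and was not tested. Nedd8, a modifier of cullins, had 108 ± 10.5 and 110 ± 12.7 FPKM, and its E2 gene Ube2m 103 ± 9.57 and 105 ± 1.81. Of 16 tested proteases of such tags, 0 were called (median 0.07), with Senp3, a SUMO protease, at 33.4 ± 1.22 and 33.8 ± 2.02 FPKM and Cops5, the subunit that removes NEDD8, at 18.7 ± 1.48 and 18.0 ± 1.62 FPKM. A missed threshold does not show that these genes were equal.

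Most other genes tied to ISG15 were likewise not called. Of 10 tested ligases, receptors and cross-reacting proteases, 0 passed by limma and 1, Trim25, had an unadjusted p under 0.05, with a median log2 fold change of 0.01. Trim25, a RIG-I ligase that is itself ISGylated, averaged 17.1 ± 0.332 FPKM in IL-17 libraries against 20.2 ± 0.895 in controls (SD, n = 3 each; limma adjusted p = 0.0902). It was called lower under TMM scaling (limma adjusted p = 0.048), array weights (0.0129) and the length correction (0.0299), against up to 0.301 with 1 library left out. Usp5, a deubiquitinase reported to react with ISG15, stood at 70.9 ± 3.38 and 76.7 ± 2.26 FPKM. Among the 4 other HERC genes 0 were called by limma and 0 had an unadjusted p under 0.05 (median 0.05). Herc2 averaged 3.04 ± 0.0853 and 2.78 ± 0.274 FPKM, and Herc4 2.01 ± 0.153 and 1.81 ± 0.0736 FPKM. Of 19 genes for proteins reported to carry ISG15, 3 fell and 16 did not pass, with a median of 0.003. Over all tested genes 0.996% were called lower. In this list 7 genes had an unadjusted p under 0.05, against 16.7% of all tested genes. The most abundant uncalled ones were Mapk3, the ERK1 kinase gene, at 146 ± 7.52 and 139 ± 1.73 FPKM, and Pcna, the replication clamp gene, at 98.4 ± 9.81 and 98.0 ± 11.9 FPKM. Those that fell included Ccnd1, the cyclin D1 gene (37.3 ± 1.67 to 27.1 ± 0.701 FPKM), and Ddx58, which encodes RIG-I (16.9 ± 1.56 to 11.6 ± 0.87 FPKM). The Ddx58 call (limma adjusted p = 0.028) did not hold without IL-17 library 2 or 3 or control library 2 or 3, the adjusted p reaching 0.121.

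**Figure D4:**
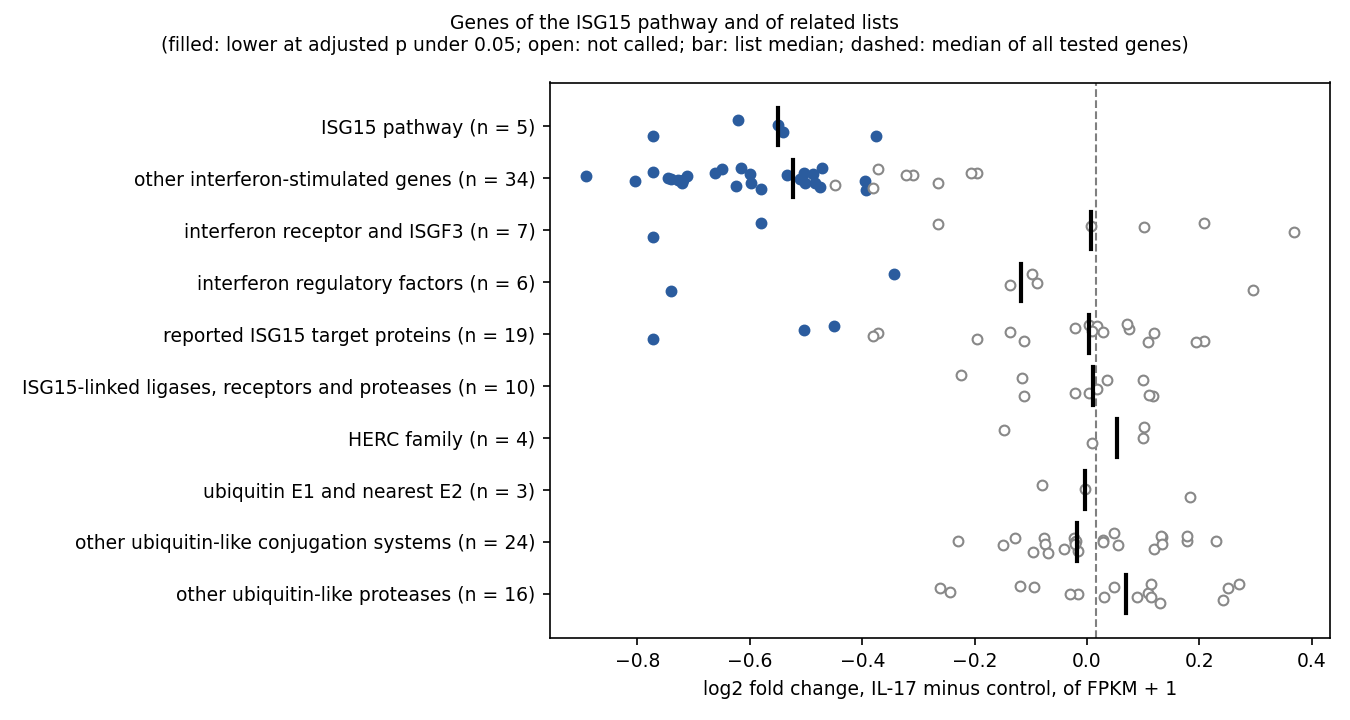
Log2 fold change (IL-17 minus control) of every tested gene in the pathway and in 9 related lists; filled points were called lower by limma, open points were not called, bars are list medians and the dashed line is the median of all tested genes. The pathway (median -0.55) and the other interferon-stimulated genes (median -0.52) lie to the left, the other ubiquitin-like systems around 0.

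The upstream machinery changed in part. Of 7 genes for the interferon receptor, its kinases and ISGF3, 2 fell and 5 did not pass, with a list median of 0.01. An unadjusted p under 0.05 was found for 5 of the 7, some lower and some higher, against 16.7% of all tested genes. Stat2, an ISGF3 subunit, averaged 13.7 ± 0.949 FPKM in IL-17 libraries against 20.9 ± 1.13 in controls, and fell by 0.58 on the log2 scale (SE 0.07, limma adjusted p = 0.00651). Irf9, a DNA-binding ISGF3 subunit, averaged 16.9 ± 1.38 FPKM in IL-17 libraries against 20.5 ± 0.719 in controls (limma adjusted p = 0.111). With array weights Irf9 was called lower (limma adjusted p = 0.0256), against up to 0.31 with 1 library left out. Ifnar2, the receptor chain that Usp18 binds, averaged 23.5 ± 1.54 and 23.4 ± 2.1 FPKM (limma adjusted p = 0.974). The receptor kinase genes had higher values with IL-17 but did not pass, and are named after their values were seen. Tyk2 averaged 9.70 ± 0.748 FPKM in IL-17 libraries against 7.28 ± 0.517 in controls (log2 difference 0.37, limma adjusted p = 0.0605), and Jak1 10.2 ± 0.571 against 8.74 ± 0.75 FPKM (0.21, 0.221). Tyk2 was called higher with a filter of 2 FPKM (limma adjusted p = 0.0406), array weights (0.0137), the length correction (0.0358) or protein-coding genes alone (0.0364), against up to 0.222 with 1 library left out. Among 6 interferon regulatory factor genes, Irf7 and Irf1 fell and 4 did not pass. The Irf7 log2 fold change was -0.74 (SE 0.04), and that of Irf1 -0.34 (SE 0.06). The Irf1 call (limma adjusted p = 0.0298) held only when IL-17 library 3 was the one left out, and reached 0.155 otherwise. Irf3 was at 16.3 ± 0.647 and 18.1 ± 0.78 FPKM and Irf5 at 5.56 ± 0.699 and 5.96 ± 0.356 FPKM, neither called. Interferon genes themselves were near 0: Ifnb1 averaged 0.312 ± 0.163 FPKM in IL-17 libraries against 0.444 ± 0.214 in controls, and Ifng 0.588 ± 0.166 against 0.313 ± 0.124. Of 9 listed interferon genes 5 were in the table, and 0 passed the filter on low values.

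Of 34 other interferon-stimulated genes, 26 fell, 0 rose and 8 did not pass by limma, with a median log2 fold change of -0.52. Over all tested genes 0.996% were called lower, and this list too was chosen with earlier results of these data known. Some of these genes also belong to the lists above. Irf7, Cmpk2 and Xaf1 were among those with the smallest p. Cmpk2, a mitochondrial nucleotide kinase gene, had a log2 fold change of -0.89 (SE 0.06) and Xaf1, a pro-apoptotic factor gene, -0.62 (SE 0.05). Ifit1, an RNA-binding antiviral gene, did not pass, at 27.7 ± 3.86 FPKM in IL-17 libraries against 36.2 ± 2.56 in controls (limma adjusted p = 0.133). With IL-17 library 1 and control library 3 both left out, 17 of the 34 were called lower. Ranked from the lowest log2 fold change of 12953 tested genes, Isg15 stood at place 43, Uba7 at 80, Ube2l6 at 107, Usp18 at 112 and Herc6 at 239. These places are on the log2(FPKM + 1) scale, which shrinks changes at low levels. The IL-17 mean was 0.684 times the control mean for Usp18 and 0.685 times for Herc6.

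Patterns across the 6 libraries were compared by Pearson's r of log2(FPKM + 1) with 8151 protein-coding genes of at least 2 FPKM, as a description over libraries that also differ by group. Isg15 was most like Tmem176b (r = 0.998), Apol9b (0.998) and H2-K1 (0.997), and Usp18 most like Bst2 (0.998), Apol9b (0.996) and Tmem176b (0.996). Bst2, or tetherin, holds budding viruses at the cell surface, and H2-K1 is a classical MHC class I gene. Tmem176b followed the order of the libraries with a small change, from 98.3 FPKM in IL-17 libraries to 110 in controls, and was not called (limma adjusted p = 0.125). The genes most like Uba7 included Hap1 (0.999) and Lgals9 (0.997), both called lower by limma. Hap1 binds huntingtin, and Lgals9 is a secreted lectin gene. Ube2l6 was most like Park7 (0.998), Ndufa11 (0.998) and Cog8 (0.994), none of them called. Herc6 was most like Ccn1 (0.997), Fam83d (0.997) and Pabpc4 (0.996). Of these Ccn1 and Fam83d were called lower, but not in every fit with 1 library left out, where limma adjusted p reached 0.0662 and 0.109, Ccn1 losing its call without IL-17 library 2 or control library 2 or 3 and Fam83d keeping it only without control library 1. Apol9b was also called lower (limma adjusted p = 0.00308), as were Bst2 (0.00888, lost without IL-17 library 2 at 0.0519) and H2-K1 (0.0222, lost with any library left out, 0.0532 to 0.105). Among themselves, Isg15 and Usp18 had r = 0.997, Isg15 and Ube2l6 0.991, and Uba7 and Herc6 0.973, while Ube2l6 and Herc6 had 0.892. So many genes came close (117 with r over 0.95 for Isg15) that the named ones are not set apart from the next. Apol9b and H2-K1 belong to families of closely similar genes, so their values depend on how reads were assigned.

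The nearest tested protein-coding gene on each side of every member was read after the members' values were known. Agrn, the gene of the basement membrane protein agrin, lies 1.94 kb from Isg15 on the same strand. It stood at 15.4, 14.2 and 13.6 FPKM in IL-17 libraries 1 to 3, against 18.5, 21.1 and 20.5 FPKM in control libraries 1 to 3, which is -0.45 on the log2 scale (SE 0.07, limma adjusted p = 0.0228). Leaving out IL-17 library 2 or 3 or control library 2 or 3 ended that call, up to an adjusted p of 0.111. AW011738, on the other side of Isg15, was at 1.84 ± 0.181 and 2.46 ± 0.176 FPKM and was not called (limma adjusted p = 0.125). The other 8 neighbours were not called, including Inka1, 0.163 kb from Uba7, at 8.40 ± 0.585 FPKM in IL-17 libraries against 9.55 ± 0.811 in controls (limma adjusted p = 0.328). Genes whose exons overlap a member averaged under 0.1 FPKM: Gm44148 at Usp18 0.0874, Gm20661 at Uba7 0.0238 and Gm45193 at Herc6 0.0168.

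**Figure D5:**
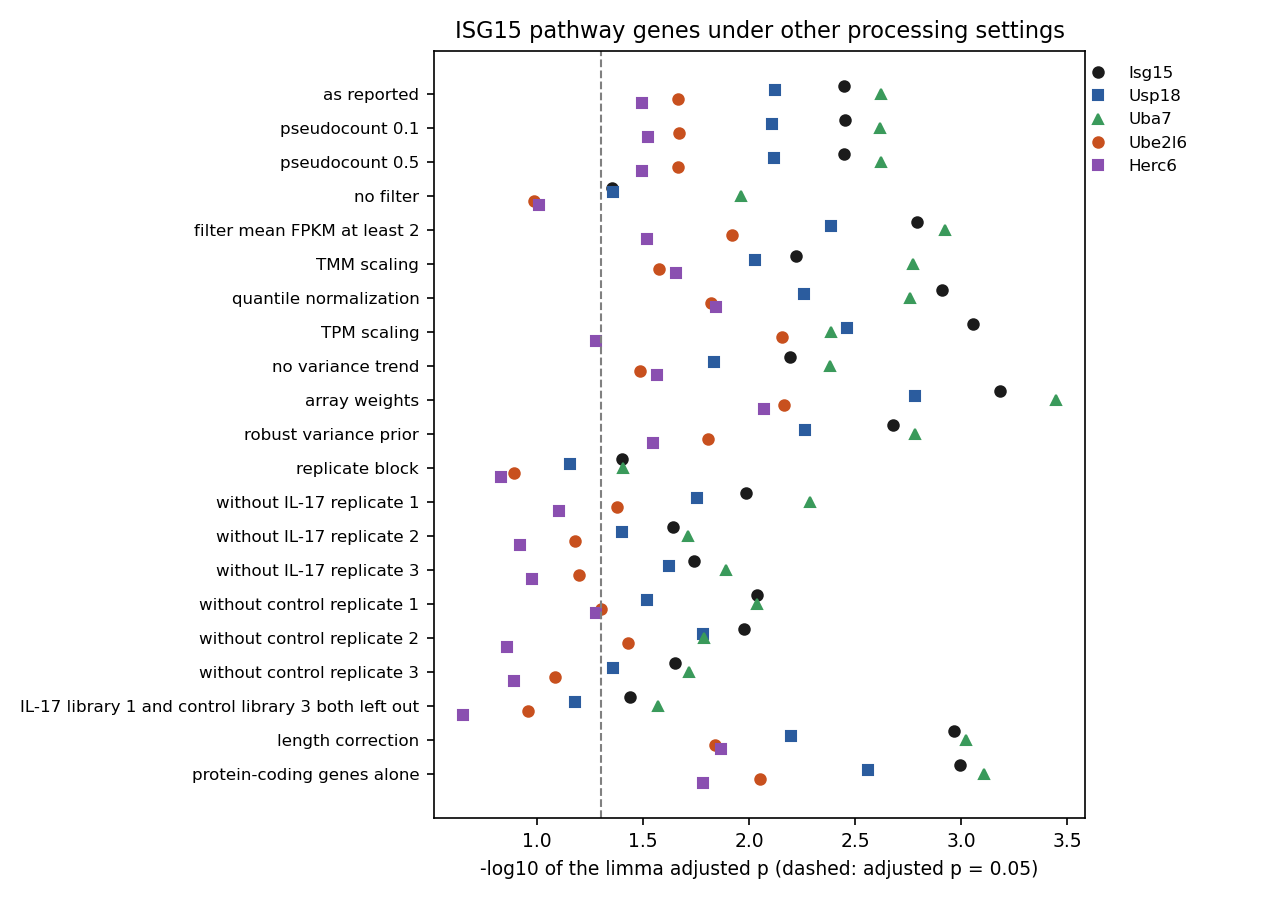
Minus log10 of the limma adjusted p of each member as reported and under 20 other settings, with the threshold of 0.05 dashed. Isg15 and Uba7 lie to the right of it in all 20, Usp18 in 18, Ube2l6 in 14 and Herc6 in 10.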

How the data were processed

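RNA from 6 HT22 libraries was sequenced after poly(A) capture with dUTP second-strand marking, as paired ends, per the labels' protocols. The authors deposited FPKM values for 26595 Ensembl genes; fastp, StringTie, edgeR and build mm10 are named per the submitters' processing notes, without order. The sources used here name no aligner or annotation release. Whether counting used strand is not stated, so overlapping genes are uncertain. Symbols came from GENCODE vM21 on GRCm38 (mm10), which matched 26525 identifiers; 70 did not match. Promoters came from RefSeq, GRCm38.p6.

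FPKM were used unscaled as log2(FPKM + 1). Genes with a mean of at least 0.5 FPKM (12953; 13642 left out) went into limma (3.58.1, under R 4.3.3), which fitted the group effect and let the prior variance follow the mean level, and p-values were Benjamini-Hochberg adjusted over all of them. The script was tested on simulated data. Ratios used exact permutation tests (scipy 1.17.1), and similar transcripts blastn 2.17.0. Depth is known only through the fragment step of low values, and intervals reflect the spread between libraries. Alternatives changed the pseudocount, filter, scaling, variance model, threshold and libraries. Named genes are the members, up to 4 called and 2 uncalled genes per list, and 3 genes most like each member. Of these, 1 is left out of the text, though list counts include it. The members and lists were chosen with earlier results of these data known. Protein sequences were not used here. Unused sample columns numbered 0.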

Additional observations from a re-analysis of the deposited data

How the results depend on the processing

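Over 20 alternatives the log2 fold change of all 5 genes stayed negative, from -0.83 to -0.70 for Isg15, -0.69 to -0.59 for Uba7, -0.61 to -0.47 for Ube2l6, -0.52 to -0.35 for Herc6 and -0.59 to -0.50 for Usp18. With 1 library left out these ranges were -0.83 to -0.70, -0.65 to -0.59, -0.61 to -0.47, -0.41 to -0.35 and -0.59 to -0.50, 3 to 4 of the 5 were called, and 117 to 254 genes were called over all, against 252 with all libraries. Without a filter on low values 135 genes were called, and Ube2l6 (-0.55, limma adjusted p = 0.104) and Herc6 (-0.38, 0.0984) were not, leaving 3 of 5. That fit adjusted over 26595 genes, and its variance trend was fitted over all of them too. Which of these moved the calls was not tested. Herc6 was not called under TPM scaling (-0.47, limma adjusted p = 0.0527). Array weights gave 1015 calls. At an adjusted p under 0.01 there were 106 calls with 3 members, and at 0.1 there were 533. With IL-17 library 1 and control library 3 both left out, 160 genes and 2 members were called; Usp18 was at -0.50, Ube2l6 at -0.51 and Herc6 at -0.35. That design has fewer samples, and Sftpc and Alb were called in it. Of the 34 other interferon-stimulated genes, 17 were called lower without a filter and 12 with the block described next, against 26.

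Whether the replicate numbers pair the libraries could not be settled with 3 libraries a group. Deviations from the group means correlated at -0.14, 0.08 and 0.21 for numbers 1, 2 and 3. With the replicate number as a block, 80 genes and 2 members, Isg15 and Uba7, were called, and Usp18 (-0.54, limma adjusted p = 0.0703), Ube2l6 (-0.55, 0.129) and Herc6 (-0.38, 0.148) were not. IL-17 libraries 2 and 3 correlated best with the control library of their own number, and IL-17 library 1 with control library 2 (0.25).

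Some ratios changed sign with a library left out: the log2 difference ran from -0.15 to 0.033 for Isg15 to Uba7, -0.027 to 0.027 for Usp18 to Ube2l6, -0.085 to 0.088 for Usp18 to Herc6 and -0.10 to 0.11 for Ube2l6 to Herc6. None of these pairs had separate groups. With 3 libraries a group, the exact test cannot pass 0.05, and the depth behind each value is known only through the fragment step.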
